A study of Mus musculus with 16 samples.

Results

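The miR-30 family was examined in small RNA libraries of mature mouse sperm. Its members were taken as the 5p arms miR-30a, miR-30b, miR-30c, miR-30d and miR-30e, 5 arms in all. Of these, 3 (miR-30a-5p, miR-30c-5p and miR-30e-5p) had a sequence in the RefSeq table used here, and each of the 3 had reads; miR-30b-5p and miR-30d-5p were not analysed here. A read counted for an arm when it began with the first 20 bases of that arm and was 20 to 26 nt long. The 3 members stood among 1621 microRNA arms of the table that differ in their first 20 bases, of which 545 had a read in at least 1 library.

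The study asked how diet and the tRNA cytosine methyltransferase Dnmt2 (Trdmt1) bear on sperm small RNA. The 8 libraries came from sperm of the cauda epididymis of adult males on the C57BL/6NCrl background, with 2 libraries in each of 4 groups: Dnmt2+/+ on a normal diet (ND), Dnmt2-/- on ND, Dnmt2+/+ on a high-fat diet (HFD) and Dnmt2-/- on HFD. The Dnmt2-/- mice carried the allele Dnmt2tm1Bes in every cell and had been backcrossed to this background. Per the labels' protocols, C57BL/6NCrl mice were bought at 6 weeks of age. The labels do not say whether a library was made from 1 mouse or from a pool, nor whether replicates were separate mice, so the p-values below measure the spread between libraries only, and that spread may be technical. Small RNA reads of this kind do not check the loss of the Dnmt2 transcript.

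MicroRNAs are short RNAs, cut as a pair of arms from 1 hairpin, that guide Argonaute proteins to messenger RNAs. The target is found mainly through the seed, bases 2 to 8 of the arm, and microRNAs that share a seed form a family. The miR-30 family is expressed in many somatic tissues, epithelia among them, and sperm can take up small RNAs from the epithelium of the epididymis as they mature.

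The mature sequences of the members are shown first, since the arms have 1 seed in common and differ only in their 3′ part. They are RefSeq sequences on GRCm38.p6, with the seed in capitals.

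miR-30a-5p: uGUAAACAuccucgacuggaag

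miR-30c-5p: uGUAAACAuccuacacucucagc

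miR-30e-5p: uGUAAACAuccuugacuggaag

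All 3 arms shared their first 12 bases. Within the first 20 bases, miR-30a-5p and miR-30e-5p differed at 1 base, position 13 from the 5′ end, and miR-30c-5p differed from each of them at 5 bases. A further arm with this seed, miR-384-5p, was in the RefSeq list, and it had 0 reads in all 8 libraries, where 3 counts would be 0.158 to 0.295 CPM (counts per 1000000 reads of the library). The opposite arms carry other seeds, and 3 of them are shown because their levels are set against those of the members below.

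miR-30a-3p: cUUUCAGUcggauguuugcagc

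miR-30e-3p: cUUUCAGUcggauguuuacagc

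miR-30c-2-3p: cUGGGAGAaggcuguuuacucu

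The 3 members came from 4 hairpins in 2 places. Mir30a lay at chr1:23272269-23272339 and Mir30c-2 at chr1:23291701-23291784, both on the plus strand, with 19361 bases between them and no gene of the RefSeq table spanning either. Mir30c-1 lay at chr4:120769534-120769622 and Mir30e at chr4:120772606-120772697, both on the minus strand, 2983 bases apart and within the span of Nfyc, the gene of a subunit of the transcription factor NF-Y. Whether they are exonic or intronic in Nfyc was not analysed here. Mir30c-1 and Mir30c-2 give the same 5p arm, so that miR-30c-5p cannot be split between them. Their 3p arms can be told apart: miR-30c-2-3p had 774 reads over the 8 libraries and miR-30c-1-3p had 31.

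Depth ranged from 10165031 to 19030258 reads per library, and 1.08% to 7.01% of the reads matched a microRNA arm. The libraries fell into 3 sets by errors at fixed positions of the read, which the labels do not name. Set A (Dnmt2+/+ ND replicate 1 and both Dnmt2-/- ND libraries) had 394 to 439 G-to-T errors per 10000 reads at 1 such position, against at most 4.15 elsewhere. Set B (Dnmt2-/- HFD replicate 1 and both libraries of Dnmt2+/+ HFD) had 9.92 to 10.5 C-to-G errors per 10000 reads at another, against at most 1.28 elsewhere. Dnmt2+/+ ND replicate 2 and Dnmt2-/- HFD replicate 2 had neither and are called set C. Set A thus held only ND libraries and set B only HFD libraries, and set C held 1 Dnmt2+/+ ND and 1 Dnmt2-/- HFD library. Diet and set cannot be told apart over sets A and B, nor diet and genotype within set C. Of 7 matched microRNAs of the male germ line, the summed level was 342 to 1546 CPM in every library, led by miR-881-3p, while miR-34b-5p was at 0.295 CPM or lower.

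Among the 3 members counted, miR-30a-5p was the most abundant in every library. On ND it was at 50.9 and 270.3 CPM in the Dnmt2+/+ libraries (replicates 1 and 2) and at 49.5 and 38.2 CPM in the Dnmt2-/- libraries. On HFD it was at 188 and 157 CPM in Dnmt2+/+ and at 128 and 84.7 CPM in Dnmt2-/-. The 3 ND libraries of set A were the lowest of the 8, and the fourth ND library, Dnmt2+/+ ND replicate 2, was the highest, so the diets overlapped.

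miR-30c-5p was at 20.4 and 172 CPM in Dnmt2+/+ ND, and at 35.7 and 18.02 CPM in Dnmt2-/- ND. On HFD it was at 123 and 98.8 CPM in Dnmt2+/+ and at 79.9 and 52.7 CPM in Dnmt2-/-. The same library was the highest and the same 3 were the lowest as for miR-30a-5p.

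miR-30e-5p was scarce. It had 7 and 215 reads in Dnmt2+/+ ND, 16 and 5 in Dnmt2-/- ND, 147 and 129 in Dnmt2+/+ HFD, and 88 and 31 in Dnmt2-/- HFD. These were 0.368 and 15.8, 1.21 and 0.380, 14.3 and 12.7, and 8.54 and 2.33 CPM in that order. The pattern over libraries was that of the other members, with a wider span. Because miR-30e-5p differs from miR-30a-5p by 1 base in the matched part, misread miR-30a-5p reads could be counted as miR-30e-5p. Reads of miR-30e-5p amounted to 5.41% of miR-30a-5p reads over all libraries. A C-to-T change, the kind of change that separates the arms, was found at 3 other positions of miR-30a-5p in 0.0254% to 0.339% of its reads. In Dnmt2+/+ ND replicate 1 and Dnmt2-/- ND replicate 2, however, miR-30e-5p reads were 0.723% and 0.994% of miR-30a-5p reads, and the most frequent of these changes was at 0.930% and 0.994%. The miR-30e-5p values of these 2 libraries are therefore no higher than such changes.

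**Figure D1:**
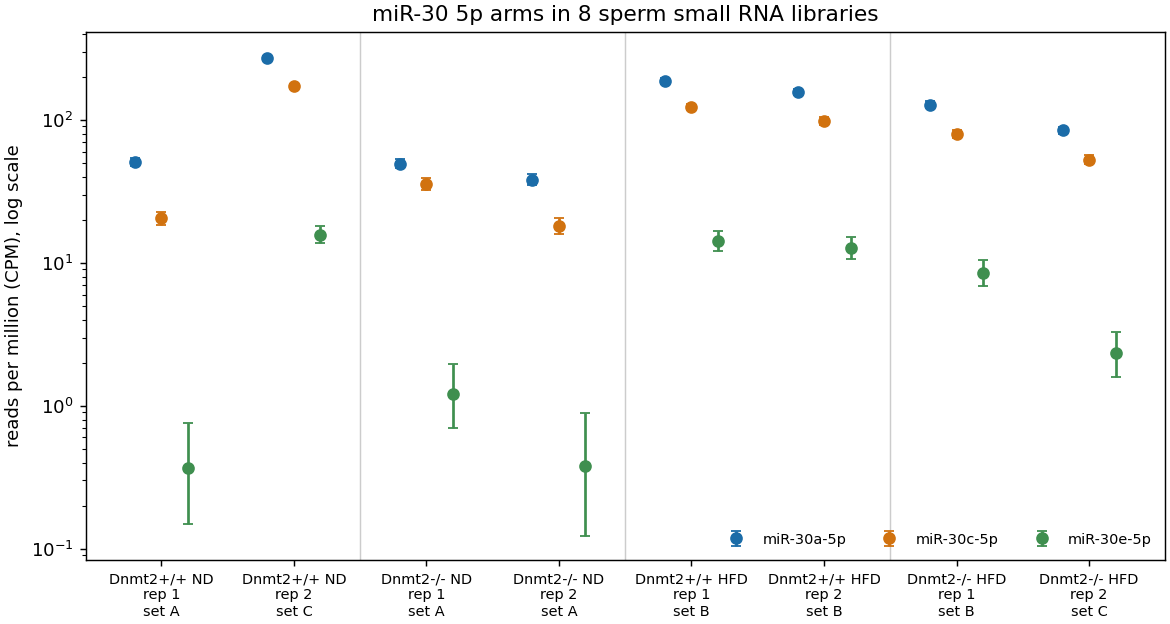
Level of each counted miR-30 member (CPM, log axis) in each of the 8 libraries, with the read-error set under the library name. Bars are 95% exact binomial intervals of the count and cover counting error only. The 3 members keep their order in every library, all 3 are lowest in the 3 libraries of set A, and all 3 are highest in Dnmt2+/+ ND replicate 2.

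The libraries of set A were below the other 5 for all 3 members. This was the case for 123 of the 187 arms tested (65.8%), so it was common among microRNAs. All 3 members were highest in Dnmt2+/+ ND replicate 2, as were 58 of 187 arms (31%). HFD was above ND without overlap in 26 of 187 arms (13.9%), and no member was among them.

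The summed level of the 3 members averaged 168 ± 194 CPM over the 4 ND libraries and 238 ± 79.0 CPM over the 4 HFD libraries (SD). By group it was highest in Dnmt2+/+ HFD, at 297 ± 40.3 CPM, followed by Dnmt2+/+ ND at 265 ± 273, Dnmt2-/- HFD at 178 ± 54.2 and Dnmt2-/- ND at 71.5 ± 21.0 CPM (SD, n = 2 each). The Dnmt2+/+ ND libraries, at 71.7 and 458 CPM, spanned both HFD groups and overlapped Dnmt2-/- ND (56.7 and 86.4 CPM), so this group did not stand apart from any other. The remaining 3 groups did not overlap each other, with 269 and 326 CPM in Dnmt2+/+ HFD and 216 and 140 CPM in Dnmt2-/- HFD. Such separation was common among microRNAs: in 147 of 187 arms (78.6%) both Dnmt2-/- HFD libraries were above both Dnmt2-/- ND libraries. The share of arms that separate the other pairs of groups was not counted. Of all microRNA reads, the members made up 2.18% in Dnmt2+/+ ND replicate 2 and 0.260% to 0.802% in the other libraries. Relative to the microRNAs, that library was again the highest, whereas set A no longer lay below the rest. Fewer cells that carry these RNAs and less RNA per cell cannot be told apart in such bulk samples.

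The order of the 3 counted members was the same in every library, while their shares varied, most of all that of miR-30e-5p. The arms are 22 and 23 nt long, so their reads were compared without scaling for length. miR-30a-5p made up 57.3% to 71.0% of the summed reads (61.4% ± 5.05, SD, n = 8), miR-30c-5p 28.5% to 41.3% (36.0% ± 3.99) and miR-30e-5p 0.513% to 4.73% (2.59% ± 1.72). On HFD the shares were 59.0% ± 1.21, 37.3% ± 0.540 and 3.68% ± 1.38, and on ND 63.7% ± 6.58, 34.8% ± 5.70 and 1.51% ± 1.35 (SD, n = 4 each). The 4 HFD libraries were alike for miR-30a-5p and miR-30c-5p, and the spread came from ND. By genotype the shares of miR-30a-5p were 61.6% ± 6.29 in Dnmt2+/+ and 61.2% ± 4.45 in Dnmt2-/-, those of miR-30c-5p 35.2% ± 4.45 and 36.9% ± 3.90, and those of miR-30e-5p 3.27% ± 1.91 and 1.92% ± 1.41 (SD, n = 4 each). Each difference between genotypes was smaller than the SD in Dnmt2+/+.

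In Dnmt2+/+ ND replicate 1, miR-30a-5p took 71.0% (95% exact binomial interval 68.5% to 73.4%), and in Dnmt2-/- ND replicate 1, of the same set, 57.3% (54.4% to 60.2%). These intervals, which cover counting error only, did not overlap, but the 2 libraries also differ in genotype. Dnmt2-/- ND replicate 2, of the same set, was at 67.5% (64.0% to 70.9%), also without overlap with Dnmt2-/- ND replicate 1. The proportions thus differed between libraries of 1 diet, 1 set and 1 genotype. miR-30e-5p held 3.95% to 4.73% in set B, 0.513% to 1.40% in set A, and 3.44% (ND) and 1.67% (HFD) in set C.

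For diet in Dnmt2+/+ sperm, no member passed the test (edgeR's quasi-likelihood test, Benjamini-Hochberg adjusted over 187 arms, called under 0.05). The log2 fold change of HFD over ND was 0.10 ± 0.76 (SE; adjusted p = 0.971 in edgeR) for miR-30a-5p, 0.21 ± 0.91 (0.971) for miR-30c-5p and 0.74 ± 1.42 (0.942) for miR-30e-5p. The call was made for 1 of 187 arms (0.535%), let-7f-5p, and 18 arms (9.63%) had an unadjusted p under 0.05. The 95% intervals of the 3 members reached from -1.64 to 1.85, from -1.87 to 2.29 and from -2.49 to 3.98, so that changes of several fold either way were within the error. Among all arms, 77.5% had a log2 fold change above 0. Leaving out either Dnmt2+/+ ND library moved these values. Without replicate 2, 1 ND library of set A was left against 2 HFD libraries of set B. The lone library is assumed to vary like the other groups. In that fit miR-30a-5p was at 1.76, miR-30c-5p at 2.44 and miR-30e-5p at 5.16, with a median of 2.47 over the 207 arms tested. Without replicate 1 the 3 values turned to -0.65, -0.63 and -0.22, and the median was 0.04.

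For diet in Dnmt2-/- sperm, the log2 fold changes were larger, and no member passed. They were 1.28 ± 0.78 (SE; adjusted p = 0.234 in edgeR) for miR-30a-5p, 1.30 ± 0.93 (0.270) for miR-30c-5p and 2.75 ± 1.54 (0.219) for miR-30e-5p. Both HFD libraries were above both ND libraries for each member, as they were for 147 of 187 arms (78.6%). Of all arms, 95.2% had a value above 0 and the median was 2.05, against which the members were not tested. In this comparison too 1 of 187 arms was called (0.535%), let-7f-5p, with 53 arms (28.3%) at an unadjusted p under 0.05. miR-30e-5p stayed at 2.75 when either Dnmt2+/+ ND library was left out. Those libraries enter this comparison only through the shared estimate of spread, so whether miR-30e-5p passed depended on that estimate. Without Dnmt2-/- HFD replicate 2 the 3 members were at 1.54, 1.57 and 3.41.

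The scale mattered for both diet comparisons, since microRNAs took 1.82% ± 0.763 of reads in the 4 ND libraries and 5.21% ± 1.87 in the 4 HFD libraries (SD). With factors that centre the arms on each other (TMM), the median log2 fold change of all arms moved from 0.61 to -0.19 in Dnmt2+/+ and from 2.05 to -0.08 in Dnmt2-/-. On that scale miR-30a-5p was at -0.74 in Dnmt2+/+ and -0.73 in Dnmt2-/-, and miR-30c-5p at -0.47 and -0.70, none of them called. Their direction on diet therefore depended on whether reads were set against all small RNA or against other microRNAs.

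Within set C the members were lower in the HFD library. miR-30a-5p was 3.19 times as high in the ND library as in the HFD library, miR-30c-5p 3.26 times and miR-30e-5p 6.76 times. These are 2 libraries with no replicate, and the ND library is Dnmt2+/+ whereas the HFD library is Dnmt2-/-. The direction was opposite to that of the fitted value over all libraries in both genotypes.

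For genotype on ND, all 3 members were lower in Dnmt2-/- by fitted value, and none passed. The log2 fold changes of Dnmt2-/- over Dnmt2+/+ were -1.87 ± 0.79 (SE; adjusted p = 0.255 in edgeR) for miR-30a-5p, -1.84 ± 0.94 (0.255) for miR-30c-5p and -3.32 ± 1.57 (0.255) for miR-30e-5p. Of the 187 arms 0 were called (0%), 26 (13.9%) had an unadjusted p under 0.05, miR-30a-5p among them, and 1.07% had a value above 0. Without Dnmt2+/+ ND replicate 1, only Dnmt2+/+ ND replicate 2 was left on that side, assumed to vary like the other groups. The 3 members were then at -2.62, -2.68 and -4.29, with a median of -2.35 over the 217 arms tested. Without Dnmt2+/+ ND replicate 2 they were at -0.21, 0.39 and 1.10, and the median was -0.13. Within set A, which holds 1 Dnmt2+/+ and 2 Dnmt2-/- libraries, the summed level was 71.7 CPM in Dnmt2+/+ and 71.5 CPM on average in Dnmt2-/-. With TMM factors the median of all arms moved from -1.65 to 0.02, and miR-30a-5p was at -0.01, miR-30c-5p at 0.18 and miR-30e-5p at -1.02.

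For genotype on HFD, the log2 fold changes were -0.70 ± 0.77, -0.74 ± 0.91 and -1.31 ± 1.44 (SE) in the order miR-30a-5p, miR-30c-5p, miR-30e-5p, with an adjusted p of 0.971 in edgeR for each. Neither these nor any other arm was called (0 of 187, 0%; 0 at an unadjusted p under 0.05), and 17.6% of arms had a value above 0. Within set B the summed level was 297 CPM in Dnmt2+/+ and 216 CPM in the Dnmt2-/- library. The difference of the diet effects between genotypes, tested as an interaction, was 1.17 ± 1.08, 1.10 ± 1.29 and 2.01 ± 2.04 on the log2 scale (SE; adjusted p = 0.789 in edgeR for each), with 0 of 187 arms called (0%) and 2 (1.07%; miR-129-5p and miR-92b-3p) at an unadjusted p under 0.05. DESeq2 called 0 arms for genotype on ND, genotype on HFD and the interaction, and no member in any of the 5 comparisons. Of all arms, 90.9% had an interaction value above 0.

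The 3 more abundant 3p arms of these hairpins spanned narrower ranges over the libraries than the members; miR-30c-1-3p, with 31 reads, was at 0 to 0.787 CPM. miR-30a-3p was at 147 and 133 CPM in Dnmt2+/+ ND, 74.95 and 140 in Dnmt2-/- ND, 176 and 157 in Dnmt2+/+ HFD, and 136 and 182 in Dnmt2-/- HFD. From its lowest to its highest library it spanned 2.43-fold, against 7.07-fold for miR-30a-5p. miR-30a-5p and miR-30a-3p are cut from the same hairpin, yet their ratio (5p over 3p) was 0.346 and 2.03 in Dnmt2+/+ ND, 0.661 and 0.272 in Dnmt2-/- ND, 1.07 and 0.999 in Dnmt2+/+ HFD, and 0.941 and 0.466 in Dnmt2-/- HFD. Among reads at the reference start, the 3p arm was thus the more abundant one in set A and in Dnmt2-/- HFD replicate 2. By this count the arms were near parity in set B, and the 5p arm led in Dnmt2+/+ ND replicate 2. With starts up to 2 bases away included, the 3p arm led in set B as well. There it had 2548 and 2278 reads in Dnmt2+/+ HFD and 2073 in Dnmt2-/- HFD replicate 1, against 1984, 1632 and 1348 of the 5p arm. In Dnmt2+/+ ND replicate 2 the 5p arm still led, with 3777 reads against 2277. Ratios of this kind varied elsewhere as well: over 10 pairs of arms with at least 20 reads of both in every library, the ratio spanned 3.17-fold to 55.6-fold with a median of 6.17, and Mir30a, at 7.44-fold, had rank 4 of 10 by width. The 10 are not separate hairpins throughout: 3 of the miR-465 cluster share 1 count of the 3p arm, and the 5p count of Mir30c-2 includes Mir30c-1.

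For miR-30e the 3p arm was the main product in every library. miR-30e-3p was at 54.3 and 72.2 CPM in Dnmt2+/+ ND, 31.1 and 39.2 in Dnmt2-/- ND, 57.6 and 69.8 in Dnmt2+/+ HFD, and 48.6 and 77.8 in Dnmt2-/- HFD. It exceeded miR-30e-5p by 4.03 to 5.69 times in set B and 25.6 to 148 times in set A, and in set C by 4.59 times (ND) and 33.4 times (HFD). The 2 highest of these ratios rest on 7 and 5 reads of miR-30e-5p.

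For miR-30c the 5p arm was the main product. It exceeded the summed 3p arms of its 2 hairpins by 2.95 to 16.3 times, least in Dnmt2+/+ ND replicate 1 and most in replicate 2 of that group. miR-30c-2-3p itself was at 3.34 to 11.2 CPM. The main arm thus differed within the family: 5p for miR-30c, 3p for miR-30e, and either one, depending on the library, for miR-30a.

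**Figure D2:**
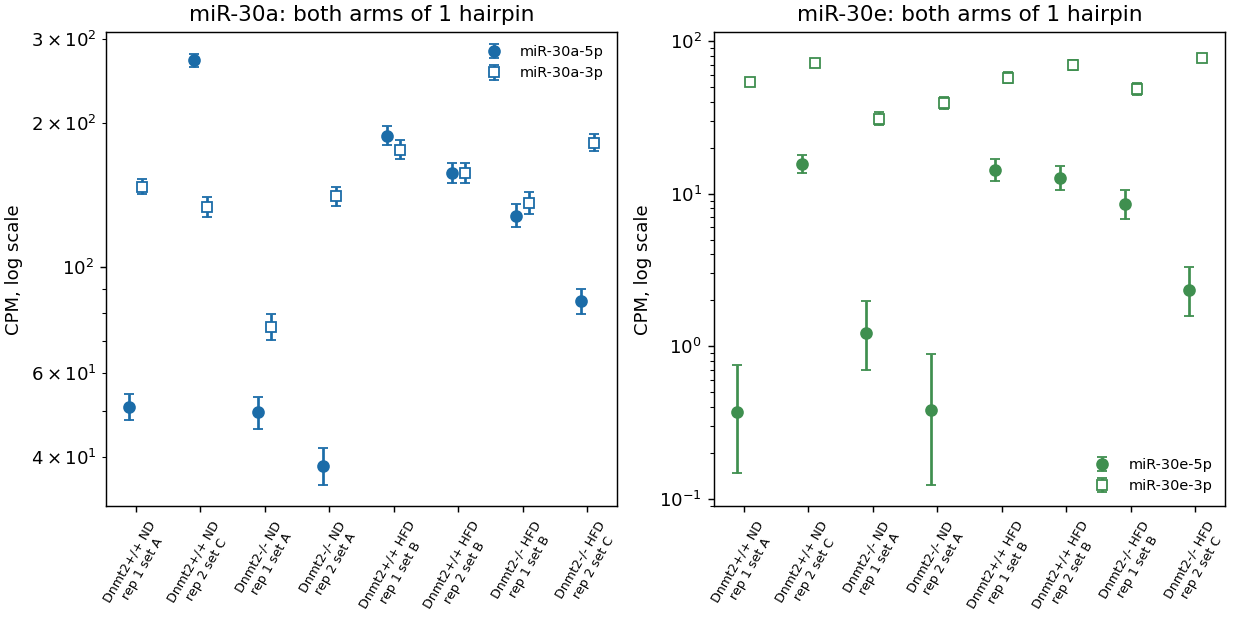
Levels of the 5p arm (filled circles) and the 3p arm (open squares) of miR-30a (left) and miR-30e (right) in each library (CPM, log axes that differ between the panels). Bars are 95% exact binomial intervals of the counts. The 5p arms span wider ranges than the 3p arms, miR-30e-3p is above miR-30e-5p in every library, and the order of the miR-30a arms differs between libraries.

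None of the tested 3p arms passed in any comparison. For diet in Dnmt2-/- sperm miR-30a-3p was at 0.56 ± 0.54 and miR-30e-3p at 0.85 ± 0.58 (log2 fold change, SE; adjusted p = 0.40 and 0.263 in edgeR), and miR-30c-2-3p was at 1.29 ± 0.73 (adjusted p = 0.219). For genotype on ND they were at -0.38 ± 0.54, -0.85 ± 0.58 and -1.25 ± 0.73. Within set C, where the members were at least 3.19 times as high in the ND library, the ND and HFD values were 133 and 182 CPM for miR-30a-3p and 72.2 and 77.8 CPM for miR-30e-3p.

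Levels of the members went together across the libraries. Pearson's r of log2(CPM + 1) over the 8 libraries was 0.981 between miR-30a-5p and miR-30c-5p, 0.972 between miR-30a-5p and miR-30e-5p, and 0.978 between miR-30c-5p and miR-30e-5p. It was 0.364 between miR-30a-5p and its own 3p arm and 0.545 between miR-30e-5p and its own. These are descriptions: the points are 8 libraries of 3 sets, they share each library's depth and microRNA content, and a few reads of miR-30e-5p may be misread miR-30a-5p.

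Among 79 other arms with a mean of at least 10 CPM, those closest to the summed members by Pearson's r of log2(CPM + 1) over the 8 libraries were miR-200a-3p (0.988), miR-191-5p (0.985), miR-871-5p (0.985), miR-872-5p (0.983) and miR-103-3p together with miR-107-3p (0.982), which share their first 20 bases. miR-200a-3p, the closest of them, was at 58.2 and 268 CPM in Dnmt2+/+ ND, 66.0 and 39.3 in Dnmt2-/- ND, 198 and 166 in Dnmt2+/+ HFD, and 164 and 79.0 in Dnmt2-/- HFD. Its highest and lowest libraries were those of the summed members. It is on the list of epithelial microRNAs below; of the other arms of that list with at least 10 CPM, miR-429-3p was at rank 22 of 79, miR-200b-3p at 25 and miR-200c-3p at 30, and each of these was highest in a library of set B. miR-871-5p is cut from the hairpin of miR-871-3p, which is on the male germ line list.

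Markers of other cells moved over the same libraries, in which 123 of 187 arms (65.8%) were lower in set A than in the other 5. The 5 of 5 matched epithelial microRNAs (miR-141-3p, miR-200a-3p, miR-200b-3p, miR-200c-3p and miR-429-3p) summed to 190 to 412 CPM in set A, 3035 to 3987 in set B, with set C between them at 1914 (ND) and 608 (HFD). By diet the sum spanned 190 to 1914 CPM (ND) and 608 to 3987 CPM (HFD). Blood microRNAs (5 of 7 matched, miR-144-3p at 0) summed to 0.455 to 5.27 CPM in ND libraries and 3.01 to 4.66 CPM in HFD libraries. The endothelial miR-126a-3p (1 of 2 matched) was at 1.37 to 14.2 and 7.82 to 19.2 CPM, and miR-206-3p, of muscle (1 of 5 matched), had 64.7 to 75.3 CPM in set B libraries and no more than 0.676 in the others. The male germ line list spanned 342 to 1546 CPM in ND and 369 to 824 CPM in HFD libraries, led by miR-881-3p at 270 to 1398 CPM. Its arms did not move alike. miR-465a-5p was at 1.52 to 2.96 CPM in set A and 21.3 to 35.7 CPM in set B. miR-449a-5p, miR-470-5p and miR-883a-3p were likewise lower in set A than in set B. miR-881-3p, miR-871-3p and miR-34b-5p overlapped between these sets. The part of other cells in the levels of the members was not tested.

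Reads of the members mostly ended past the reference sequence or at its end. The main forms of miR-30a-5p and miR-30e-5p are shown because each is 24 nt, with 2 further bases of the hairpin after the 22 nt reference.

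miR-30a-5p, 24 nt: uguaaacauccucgacuggaagcu

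miR-30e-5p, 24 nt: uguaaacauccuugacuggaagcu

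The first made up 40.1% of miR-30a-5p reads over all libraries (34.0% to 59.8% by library), and the 22 nt reference form 13.3%. For miR-30e-5p the second made up 52.0% of reads and the 22 nt reference 7.84%. miR-30c-5p instead ended mainly at its 23 nt reference, with 54.4% of reads (39.4% to 71.3% by library), and 20.2% had 1 further base of the hairpin. Counting all forms, 43.1% to 63.4% of miR-30a-5p reads were 24 nt long by library, and 56.7% to 78.5% of miR-30c-5p reads were 23 nt.

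**Figure D3:**
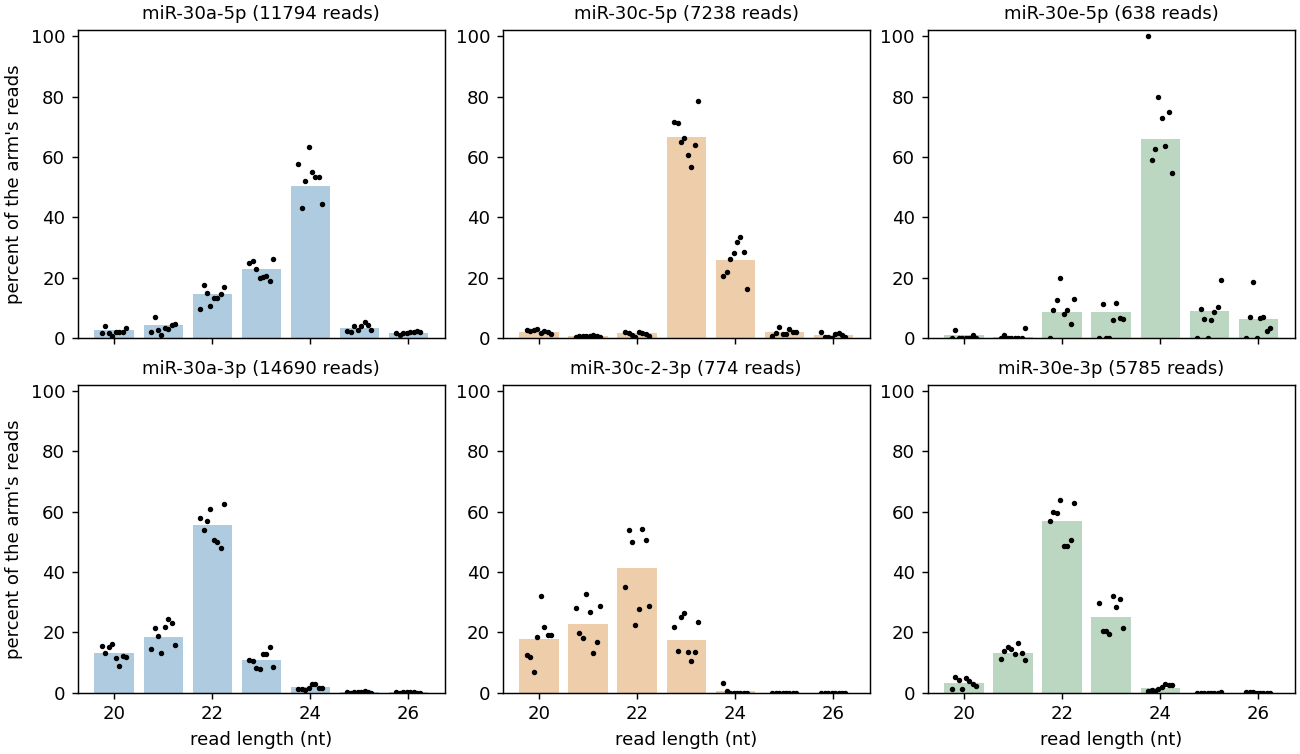
Read lengths of 6 arms of the family, as the percentage of the arm's reads at each length from 20 to 26 nt; bars are all 8 libraries together and points the single libraries, in the order Dnmt2+/+ ND, Dnmt2-/- ND, Dnmt2+/+ HFD, Dnmt2-/- HFD, 2 each. miR-30a-5p and miR-30e-5p peak at 24 nt, miR-30c-5p at 23 nt and the 3p arms at 22 nt; the miR-30e-5p points at 100% and 80% are libraries with 7 and 5 reads.

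Mean read length did not differ detectably with diet or genotype for the members that could be tested, which had at least 50 reads in every library. For miR-30a-5p it was 23.5 and 23.1 nt in Dnmt2+/+ ND, 23.4 and 23.6 in Dnmt2-/- ND, 23.4 and 23.4 in Dnmt2+/+ HFD, and 23.4 and 23.2 in Dnmt2-/- HFD. Means were 23.4 ± 0.222 nt for the ND and 23.4 ± 0.116 nt for the HFD libraries (SD, n = 4 per diet), with a 2-sided exact permutation p of 0.857 and an adjusted p of 0.904 over 58 arms. The shortest reads were in the 2 libraries of set C. For miR-30c-5p the means were 23.2 ± 0.0379 and 23.3 ± 0.0760 nt (SD, n = 4 per diet), with an exact permutation p of 0.257 (adjusted 0.473). With 4 libraries against 4 the smallest p this test can give is 0.0286. After adjustment over 58 arms none could be called unless many arms reached that p, so the lack of calls says little. By genotype, miR-30a-5p was at 23.4 ± 0.192 nt in Dnmt2+/+ and 23.4 ± 0.157 in Dnmt2-/-, and miR-30c-5p at 23.2 ± 0.0830 and 23.2 ± 0.0494 (SD, n = 4 per genotype), and the exact permutation gave an adjusted p of 0.977 for both. For diet, the mean was higher on HFD in 32 of 58 arms (55.2%), 0 were called (0%) and 2 of 58 did not overlap (3.45%); these were miR-99b-5p, named after its values were seen, and miR-30a-3p, with 21.7 ± 0.0326 nt on ND and 21.7 ± 0.0297 nt on HFD, a difference of 0.0854 nt (exact permutation p = 0.0286, adjusted p = 0.331). For genotype 0 of 58 arms were called (0%), with 1, miR-92a-3p, at an unadjusted p under 0.05 by exact permutation.

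A part of the reads departed from the hairpin at their 3′ end. Such added bases can come from terminal transferases, and misread bases past base 20 are counted with them. A base that happens to equal the hairpin's next base is counted as templated. The forms below are the most abundant of this kind for 4 arms, with the added base in capitals.

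miR-30a-5p: uguaaacauccucgacuggaagcC

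miR-30c-5p: uguaaacauccuacacucucagU

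miR-30a-3p: cuuucagucggauguuugcagU

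miR-30e-3p: cuuucagucggauguuuacagU

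The last 2 were also the most abundant of all forms of their arms, with 29.7% of miR-30a-3p reads and 27.5% of miR-30e-3p reads. The form of miR-30c-5p made up 9.51% of that arm's reads, at 13.2% to 14.3% in set B and 1.54% to 8.31% elsewhere. That of miR-30a-5p made up 5.77%, at 7.33% to 8.95% in set B and 2.39% to 4.96% elsewhere. In both 5p arms the libraries of set B were the highest.

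In all, miR-30a-5p had added bases on 14.8% and 19.4% of its reads in Dnmt2+/+ ND, 17.9% and 12.1% in Dnmt2-/- ND, 28.3% and 30.8% in Dnmt2+/+ HFD, and 28.5% and 17.1% in Dnmt2-/- HFD. miR-30c-5p had them on 7.71% and 17.5%, 14.0% and 10.5%, 28.2% and 29.98%, and 29.5% and 12.1% of its reads, in the same order. For both arms the 3 libraries of set B were near 30% and the HFD library of set C was as low as the ND libraries. Means were 16.1% ± 3.26 (ND) and 26.2% ± 6.15 (HFD) for miR-30a-5p, and 12.4% ± 4.24 and 25.0% ± 8.59 for miR-30c-5p (SD, n = 4 per diet). By exact permutation each arm had p = 0.0857 and an adjusted p of 0.181 over 57 arms. Within set C the share was lower in the HFD library, at 19.4% on ND and 17.1% on HFD for miR-30a-5p, and 17.5% and 12.1% for miR-30c-5p. The mean was higher on HFD in 48 of 57 arms (84.2%), with a median difference of 6.41 points, and 0 of 57 were called (0%). As with read length, a call was out of reach unless many arms had the smallest possible p.

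miR-30e-3p carried added bases on most of its reads: 51.2% and 57.6% in Dnmt2+/+ ND, 56.1% and 51.2% in Dnmt2-/- ND, 66.8% and 63.1% in Dnmt2+/+ HFD, and 59.3% and 59.1% in Dnmt2-/- HFD. Every HFD library was above every ND library, which held for 2 of 57 arms (3.51%), the other being miR-92a-3p, also named after its values were seen. The means were 54.0% ± 3.34 and 62.1% ± 3.64 (SD, n = 4 per diet), with an exact permutation p of 0.0286 (adjusted 0.181), so the arm did not pass the adjustment. That p is the smallest the test can give, and an arm cannot pass over 57 arms unless many others also reach it. Within set C it was 57.6% on ND and 59.1% on HFD. miR-30a-3p was at 45.3% ± 1.84 and 46.1% ± 1.91 (SD, n = 4 per diet), with an adjusted p of 0.584 by exact permutation, and the groups overlapped.

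**Figure D4:**
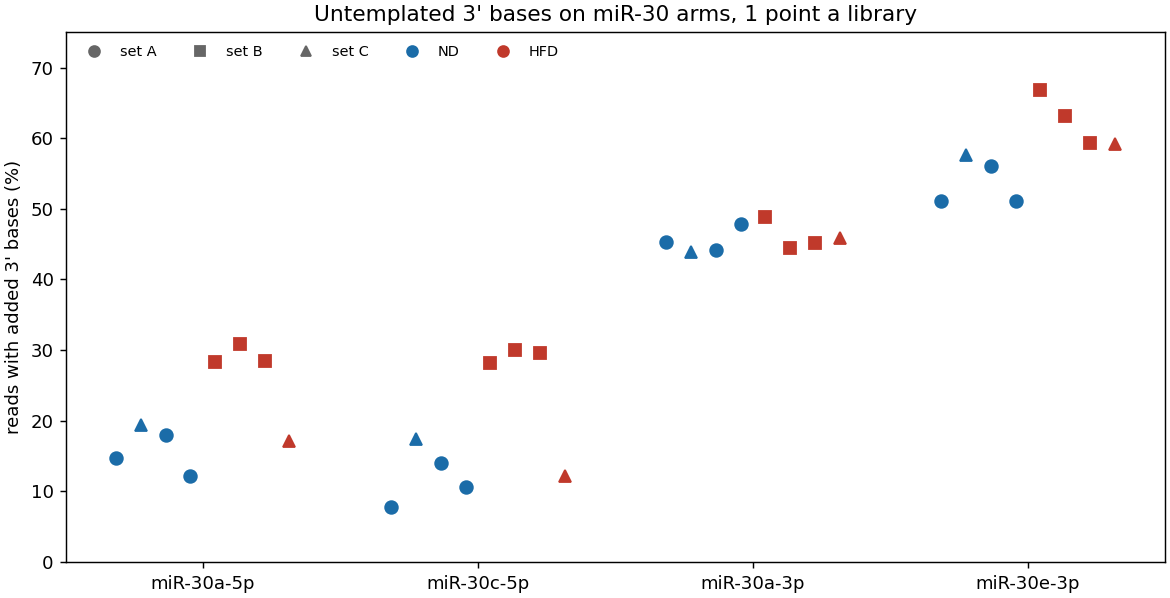
Percentage of reads with added 3′ bases for 4 arms of the family, 1 point for each of the 8 libraries, in the order Dnmt2+/+ ND, Dnmt2-/- ND, Dnmt2+/+ HFD, Dnmt2-/- HFD; colour gives the diet and shape the read-error set. For both 5p arms the HFD points of set B stand near 30% and the HFD point of set C lies among the ND points, while for miR-30e-3p every HFD point is above every ND point.

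The kind of added base differed between the arms. On miR-30a-3p a single U made up most of the additions, at 29.98% of reads, against 5.47% for a single A and 0.245% for a single C. On miR-30e-3p a single U was at 28.6% of reads and a run of several U at 19.1%. On miR-30c-5p a single U was at 10.8%, A at 4.67% and C at 3.22%. On miR-30a-5p the single additions were mixed, with A at 6.92%, C at 6.10% and U at 5.38%. For miR-30a-5p and miR-30c-5p alike, the next templated base after the 23 nt form is itself U. A U added at that place is counted as templated, so the U shares of both arms may be too low.

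The 5′ end sets the seed, and it was nearly fixed for the members. Among reads that began up to 2 bases before or after the reference start, 97.7% of miR-30a-5p, 99.9% of miR-30c-5p and 96.5% of miR-30e-5p began at it. Starts 1 base later, which shift the seed by 1 base, made up 2.19% of miR-30a-5p reads and 3.03% of miR-30e-5p reads, and 0 of 7242 reads of miR-30c-5p. miR-30a-3p was different, with 23.4% of reads starting 1 base later. By library this was 21.1% and 19.98% in Dnmt2+/+ ND, 18.1% and 17.1% in Dnmt2-/- ND, 28.9% and 29.7% in Dnmt2+/+ HFD, and 32.4% and 19.7% in Dnmt2-/- HFD. The 3 libraries of set B were the highest, and the 2 libraries of set C were at 19.98% on ND and 19.7% on HFD. miR-30e-3p, which has the same seed, began 1 base later in 1.13% of reads.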

How the data were processed

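The deposited sperm files hold counts: each lists distinct read sequences of 18 to 44 nt with their length and number of reads, and no header. Per the labels' protocols, Trizol was used for the RNA and a TruSeq small RNA kit for the libraries. The sources used here do not give how adapters were trimmed. The submitters' processing notes name the builds mm10 and GRCm38.

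Reads of 20 to 26 nt were assigned by the first 20 bases to the mature arms of a RefSeq table (GRCm38.p6; 1679 arms, 1621 distinct). CPM was taken over all reads of a library. Counts were tested with edgeR 4.0.16 (R 4.3.3; quasi-likelihood, total reads as library size, filterByExpr, all 4 groups in 1 fit, 187 arms), with DESeq2 1.42.0 as an alternative, and read length and added bases by exact permutation of library means per arm. Adjustment was by Benjamini-Hochberg over all arms tested, called under 0.05. Scripts were tested on simulated data. The smallest level that 3 counts allow was 0.158 to 0.295 CPM; without molecular identifiers, PCR copies are counted as molecules, so such limits and all intervals cover counting error only. Replicates differed by more than counting noise in all 4 groups (chi-square per arm 60.9 to 1136).

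Named arms were the members, the 3p arms of their hairpins, arms with the same seed, the 5 arms most like the summed members, and markers of other cells. The members and lists were chosen with earlier results of these data known. Of the marker lists, the liver list and 8 further arms were not analysed here. The 3T3 libraries of the series were not used here.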

Additional observations from a re-analysis of the deposited data

Results flagged for a closer look

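In 9 of 76 groups of 4 libraries that were checked, 1 library lay far from the other 3 (its gap to the nearest of the others, over the range, was above Dixon's 95% critical value); chance flags about 1 group in 20. On ND, Dnmt2+/+ ND replicate 2 was far above the rest for miR-30a-5p (270.3 CPM against 38.2 to 50.9), miR-30c-5p (172 against 18.02 to 35.7), miR-30e-5p (15.8 against 0.368 to 1.21) and their sum (458 against 56.7 to 86.4). The 4 are 1 pattern, since the members went together. This library was the single ND library of set C, and the other 3 were set A.

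Among Dnmt2+/+ libraries, the share of miR-30a-5p among the members was highest in ND replicate 1 (71.0% against 57.8% to 59.0%), and that of miR-30c-5p lowest (28.5% against 36.8% to 37.8%). Mean read length of miR-30a-5p was lowest in Dnmt2-/- HFD replicate 2 among HFD libraries (23.2 nt against 23.4 nt in each of the others) and in Dnmt2+/+ ND replicate 2 among Dnmt2+/+ libraries (23.1 nt against 23.4 to 23.5 nt), both of set C. The share of miR-30c-5p reads with added bases was lowest in Dnmt2-/- HFD replicate 2 among HFD libraries (12.1% against 28.2% to 29.98%).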

How the results depend on the processing

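Of 240 alternative values of the 3 members in the 5 edgeR comparisons, 197 kept direction and side of the threshold, 36 turned direction and 7 passed the test where the reported value did not; the 7 all came from leaving out a Dnmt2+/+ ND library. Those fits left 1 library in that group. Depth limits miR-30e-5p most, with 5 to 16 reads in set A. Matching on the first 18 bases, and matching with up to 1 mismatch, were not run, since family members differ by few bases. The causes below were not tested.

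In Dnmt2+/+ sperm, diet gave 0 calls with TMM factors, 3 with microRNA reads as the library size, 21 with DESeq2, 13 without the filter, 0 with the set as a term, 0 with the full mature sequence and 0 to 72 leaving out 1 library. In Dnmt2-/- sperm these were 0, 0, 3, 20, 0, 0 and 0 to 68. Genotype on ND gave 0 to 84 leaving out 1 library. The replicate number as a block gave 1, 1, 0, 0 and 0 calls for diet in Dnmt2+/+, diet in Dnmt2-/-, genotype on ND, genotype on HFD and interaction, as in the fit without it; deviations of equal numbers correlated at -0.539 to 0.453, so the numbers do not pair the libraries.

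Values that turned direction (log2) were, for diet in Dnmt2+/+, miR-30a-5p at -0.74 with TMM, -1.38 with microRNA reads, -0.68 with DESeq2 and -1.24 with the set; miR-30c-5p at -0.47, -1.30, -0.42 and -1.23; and miR-30e-5p at -0.78 with microRNA reads and -2.09 with the set. For diet in Dnmt2-/-, miR-30a-5p was at -0.73, -0.46, -0.61 and -1.46, miR-30c-5p at -0.70, -0.47, -0.58 and -2.10, and miR-30e-5p at -3.85 with the set. For genotype on ND, miR-30c-5p was at 0.18 with TMM and 0.39 with the set, and miR-30e-5p at 1.10 with the set. For the interaction, miR-30c-5p was at -0.22 with TMM and -0.15 with DESeq2, and with the set the 3 members were at -0.22, -0.87 and -1.75. Values with the set as a term rest on unreplicated libraries. Those for diet rest on the only ND and the only HFD library of set C, which differ in genotype as well. For diet in Dnmt2+/+ they rest also on the only Dnmt2-/- library of set B. For diet in Dnmt2-/- they rest also on the only Dnmt2+/+ library of set A. Those for genotype on ND rest on the only Dnmt2+/+ library of set A. Those for the interaction rest on that library and on the only Dnmt2-/- library of set B.

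Leaving out 1 library, miR-30a-5p, miR-30c-5p and miR-30e-5p ranged from -0.65 to 1.76, -0.63 to 2.44 and -0.22 to 5.16 for diet in Dnmt2+/+. For diet in Dnmt2-/- they ranged from 0.95 to 1.54, 0.89 to 1.88 and 1.54 to 3.80, and for genotype on HFD from -1.03 to -0.43, -1.07 to -0.47 and -2.53 to -0.66. For genotype on ND miR-30a-5p ranged from -2.62 to -0.21, miR-30c-5p from -2.68 to 0.39 and miR-30e-5p from -4.37 to 1.10. For the interaction the 3 ranged from -0.49 to 1.92, -1.14 to 1.93 and -2.41 to 3.06. Mean length of miR-30a-5p differed by -0.120 to 0.0507 nt with diet and -0.0538 to 0.108 nt with genotype, that of miR-30c-5p by -0.0516 to 0.00425 nt and of miR-30e-3p by -0.0568 to 0.0121 nt with genotype, and the share of miR-30a-3p with added bases by -0.174 to 1.60 points with diet. Leaving out libraries was added after seeing the data for the summed level, which ranged from 71.6 to 205 CPM on ND and from 208 to 270.2 on HFD.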
